A study of Mus musculus with 6 samples.

Results

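Siglecs and the paired inhibitory receptors are surface proteins that set the threshold at which a macrophage responds, and 10 of their genes were followed here among the 22248 genes listed for bone-marrow-derived macrophages (BMDMs). They were chosen by name, as receptor genes of the Siglec, Pilr, Pir and gp49 families, and not by a threshold on their values, with earlier results of these data known. They comprise the Siglec genes Siglec1, Siglece, Siglecg, Siglech and Cd33, the Pilr genes Pilra and Pilrb1, the Pir gene Pirb, and the gp49 genes Lilrb4a and Lilr4b. The RNAseq data come from 3 control and 3 CITED2-deficient libraries of resting BMDMs, which were grown from bone marrow in medium with macrophage colony-stimulating factor. All 6 libraries come from C57BL/6 mice that carry Lyz2cre, which drives Cre recombinase from the Lyz2 promoter in myeloid cells. The control mice are Lyz2cre and the CITED2-deficient mice are Cited2 fl/fl:Lyz2cre, so that only the second genotype has a floxed Cited2 that Cre can remove. The labels give an age of 10 weeks, while the methods of the study give a younger age for the mice used for BMDMs. Nothing in the labels says whether the 3 libraries of a group come from separate mice, so the p-values measure the spread between these libraries.

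Siglecs are lectins of the immunoglobulin superfamily that bind sialic acids, the acidic sugars at the ends of many glycans. Many of them, like Pilra, Pirb and Lilrb4a, carry an immunoreceptor tyrosine-based inhibitory motif (ITIM) in the cytoplasmic tail. Kinases of the Src family phosphorylate the tyrosine of this motif, which then recruits the phosphatases encoded by Ptpn6, Ptpn11 and Inpp5d and dampens activation. Activating members of the paired families have short tails without this motif, and several of them signal through the adaptors Tyrobp or Fcer1g.

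The coding sequences of the members were searched for a pattern of this motif, and bases that encode a match are printed for each member that held one. The pattern searched was isoleucine, leucine, valine or serine, then any residue, tyrosine, any 2 residues, and isoleucine, leucine or valine, in the part of the coding sequence that follows a membrane-spanning window of 19 codons. Each sequence is 18 bases of the coding strand of GRCm38 (mm10), 5′ to 3′, in lower case with the tyrosine codon in capitals.
Siglece, chr7:43651585-43651602, minus strand: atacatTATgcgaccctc
Siglecg, chr7:43417979-43417996, plus strand: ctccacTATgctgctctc
Pilra, chr5:137823571-137823588, minus strand: atcgtgTATgcttccatc
Pirb, chr7:3712786-3712803, minus strand: gtgaccTATgcccagctg
Lilrb4a, chr10:51496021-51496038, plus strand: attgtcTACgcccaggta
Lilrb4a, chr10:51496194-51496211, plus strand: gtaaccTATgcccagttg
The pattern was found 3 times in Pirb, 3 times in Siglecg, 2 times in Lilrb4a and 1 time each in Siglece and Pilra. It was not found in Siglec1, Siglech, Cd33, Pilrb1 and Lilr4b, whose tails behind the window are 37, 48, 135, 9 and 43 codons long. The letters alone are common, since 2807 of 7197 coding genes with such a window (39.0%) hold a match behind it, so that a match is a description and not a proven site.

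All 10 genes are listed in the data, and the values are FPKM, that is fragments per kilobase of transcript scaled to the mapped fragments of the library, which can be compared between genes because they are divided by length. The members fell into 3 tiers of FPKM in the control BMDMs. The highest level was that of Lilr4b (536 ± 14.6, SD, n = 3), followed by Pirb (237 ± 3.81), Siglec1 (225 ± 11.8) and Lilrb4a (208 ± 10.6). A second tier comprised Pilra (9.72 ± 1.65), Pilrb1 (8.51 ± 0.42), Siglece (7.15 ± 0.62) and Cd33 (6.18 ± 0.32). Siglecg and Siglech had means of 0.185 ± 0.054 and 0.180 ± 0.017. The ranges over the 3 control libraries overlapped between Pirb and Siglec1, between Siglec1 and Lilrb4a, between Pilra and Pilrb1 and between Siglecg and Siglech, so these neighbours cannot be ordered. In CITED2-deficient BMDMs Siglec1 stood alone in second place, at 452 ± 18.8 FPKM, between Lilr4b (642 ± 30.6) and Pirb (235 ± 7.84), with ranges that did not overlap. Siglece, which lay above Cd33 in the control libraries, lay below it in the CITED2-deficient libraries (1.74 ± 0.075 against 4.95 ± 0.55), again without overlap. The share of Siglec1 in the summed FPKM of the 10 genes was 17.6 to 18.5% in control and 27.6 to 30.0% in CITED2-deficient libraries.

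**Figure D1:**
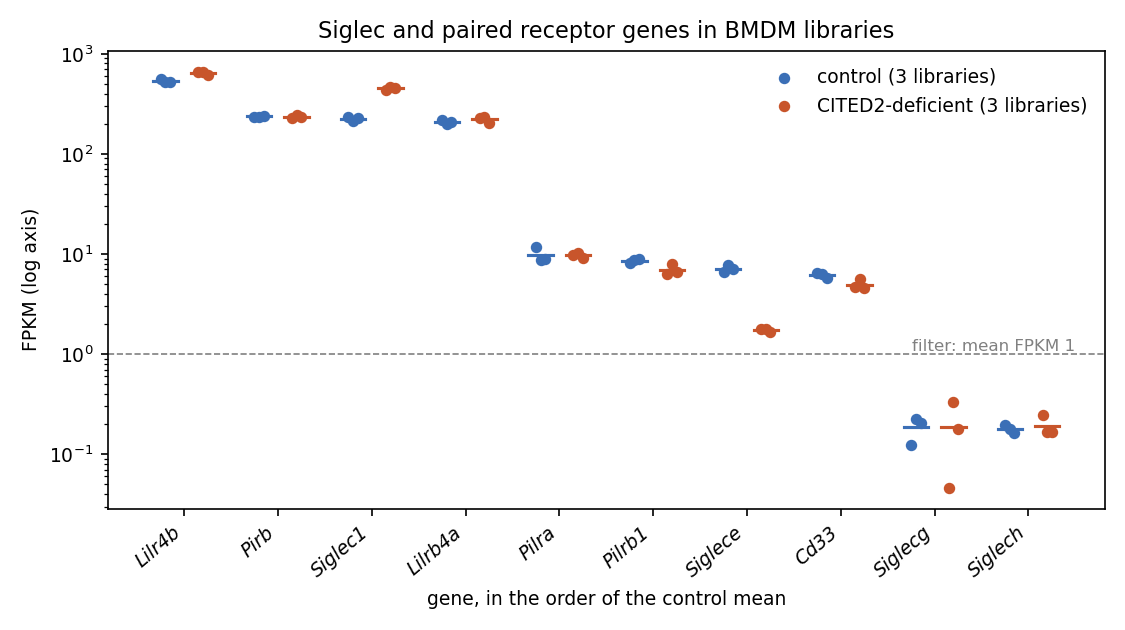
FPKM (log axis) of the 10 receptor genes in the order of the control mean, with 1 point per library, 3 libraries per group, and a line at each group mean. Siglec1 was higher and Siglece lower in every CITED2-deficient library, and Siglecg and Siglech lie below the filter at a mean FPKM of 1 in both groups.

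Genes were tested with limma on log2(FPKM + 1) where their mean FPKM over the 6 libraries was at least 1, with a Benjamini-Hochberg adjustment over all 11687 such genes. The fold changes on this scale understate the change of genes with low values. Of the 10 members 8 passed the filter on low values, 2 of them (Siglec1 and Lilr4b) rose past the threshold of 0.05 in CITED2-deficient BMDMs and 3 (Siglece, Cd33 and Pilrb1) fell. Calls are frequent in these data, since 51.3% of all tested genes passed the threshold, 16.7% higher and 34.6% lower. The values of the 2 groups did not overlap for the same 5 members, and 59.9% of all tested genes had groups that did not overlap. The count of members is therefore close to the background and says nothing particular about them. The median log2 fold change was -0.10 over all tested genes and close to 0 over the 8 tested members. When the libraries were rescaled by the median of ratios, which moved the median of all genes by 0.094 on the log2 scale, 23.1% of genes were called higher and 21.3% lower. With this scaling 3 members were called higher (Siglec1, Lilr4b and Lilrb4a) and 1 lower (Siglece).

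**Figure D2:**
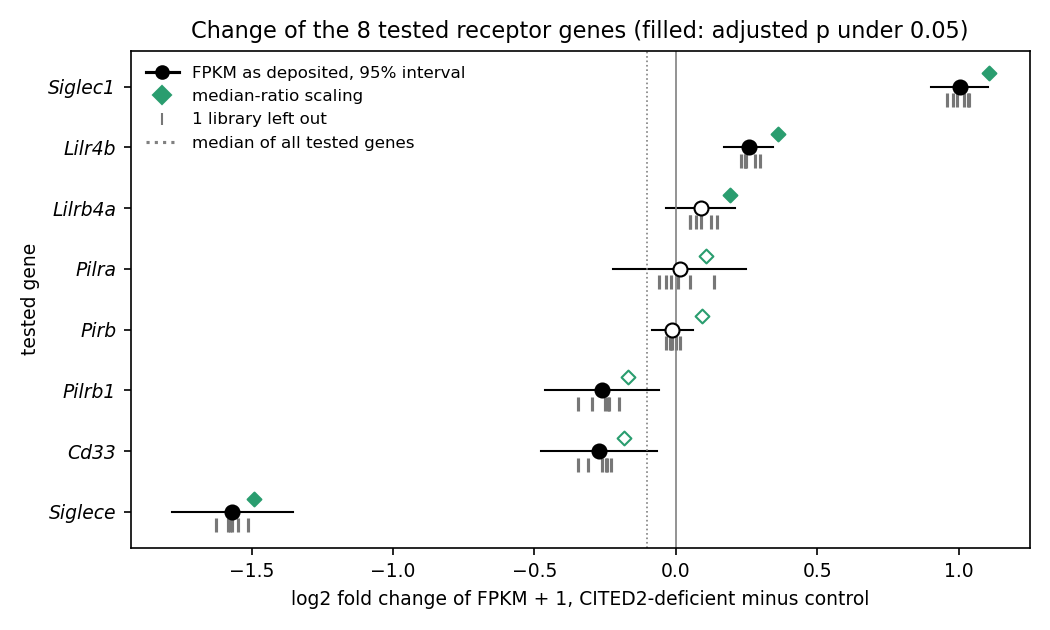
Log2 fold change of FPKM + 1, CITED2-deficient minus control, of the 8 tested receptor genes (circles with 95% intervals), with median-ratio scaling (diamonds) and with each library left out in turn (ticks), where filled symbols have an adjusted p under 0.05 and the dotted line marks the median of all tested genes. Siglec1 and Lilr4b stayed above 0 and Siglece below it in every setting drawn, whereas the calls of Cd33, Pilrb1 and Lilrb4a changed with the scaling.

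Cited2 itself, a coregulator that binds CBP and p300, was measured first to check the genotypes. Its values were 71.7, 79.3 and 75.5 FPKM (control replicates 1, 2 and 3, the order used throughout) against 9.27, 7.22 and 7.53 in the CITED2-deficient ones (log2 fold change -3.09, adjusted p = 6.57e-09 from limma), in the direction of the labels in every library. Depth recovered from the FPKM was 17289286 to 18952077 fragments in control and 22583995 to 26100410 in CITED2-deficient libraries. The defining macrophage markers Adgre1, Csf1r and Cd68 were at 906 FPKM or more in every library. Of 8 macrophage markers 1 rose (Fcgr1) and 5 fell, or 3 and 5 with median-ratio scaling. The largest fall was that of Lyz2, whose promoter drives Cre in both genotypes, from 31.3 ± 1.03 to 9.75 ± 0.33 FPKM (log2 fold change -1.59). Itgam fell from 89.7 ± 0.87 to 50.9 ± 1.69 FPKM (log2 fold change -0.81). Of 8 fibroblast or stromal markers all 6 that were tested rose, with a summed FPKM of 42.4 to 50.6 in control and 170 to 540 in CITED2-deficient libraries, highest in CITED2-deficient replicate 1. Of 7 B cell markers 3 were tested, of which Ighm fell, Ebf1 rose (log2 fold change 0.77) and Cd79b did not pass the test, and the summed FPKM was 108 to 115 in control and 19.1 to 22.03 in CITED2-deficient libraries. Of 8 granulocyte and precursor markers 1 rose (Ltf) and 5 fell, Elane and Mpo among them, with a summed FPKM of 727 to 795 in control and 658 to 777 in CITED2-deficient libraries. Of 7 mast cell, basophil and eosinophil markers 3 were tested and 2 fell (Prg2 and Ccr3), with a summed FPKM of 12.1 to 14.9 in control and 4.04 to 6.10 in CITED2-deficient libraries, and Epx was listed at 0 in all 3 CITED2-deficient libraries. No marker of conventional dendritic cells passed the filter, and their summed FPKM was 0.771 to 1.16 in control and 2.18 to 2.29 in CITED2-deficient libraries. Clec9a, Xcr1 and Ccr7 were higher in every CITED2-deficient library, while Zbtb46, Flt3 and Itgae overlapped between the groups. The fragments were few, for Xcr1 3, 0 and 1 in control against 12, 9 and 13 in the deeper CITED2-deficient libraries. No T and NK cell marker passed the filter either. The counts of markers that rose or fell stand beside 16.7% higher and 34.6% lower among all tested genes. In bulk RNA, fewer cells of a type and less RNA per cell cannot be told apart, and the part of other cells in the results below was not tested.

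Siglec1 (ENSMUSG00000027322, chr2:131069220-131086765 in mm10, minus strand) encodes sialoadhesin, an adhesion receptor of macrophages with a long extracellular part and no inhibitory motif, and is known as a gene induced by type I interferon. Its FPKM values were 234, 212 and 229 in the control libraries against 431, 467 and 458 in the CITED2-deficient ones. The lowest CITED2-deficient library was far above the highest control library. The mean was 2.01 times the control mean, and the log2 fold change of 1.00 had a standard error of 0.04 and an adjusted p of 1.77e-07 in limma. The change ranged from 0.96 to 1.11 over 15 alternative settings and stayed past the threshold in all of them. Without CITED2-deficient replicate 1, the library with the most stromal marker RNA, it was 1.04. The value rests on 17138 to 55903 recovered fragments per library, and only 1.33% of the 50-base windows of the gene occur in another gene.

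Siglece (ENSMUSG00000030474, chr7:43651070-43660161, minus strand) encodes an inhibitory Siglec of neutrophils, monocytes and macrophages with the motif shown above. Its FPKM values were 6.54, 7.78 and 7.14 in the control libraries against 1.796, 1.777 and 1.658 in the CITED2-deficient ones. Every control library was thus above every CITED2-deficient one, and the CITED2-deficient values lay close together. The control mean was 4.10 times the CITED2-deficient mean, and the log2 fold change of -1.57 had a standard error of 0.09 and an adjusted p of 1.39e-06 in limma. This was the largest change among the tested members. The fragments behind it were few, 157 to 172 per control library and 51 to 58 per CITED2-deficient library, but their order was the same although the CITED2-deficient libraries were deeper. The log2 fold change ranged from -2.02 to -1.49 over the 14 alternative settings that tested the gene, all past the threshold, and it was not tested under a filter of 5 FPKM. It was -1.58 without CITED2-deficient replicate 1. None of its 50-base windows occurs in another gene. In the same libraries 5 of the 7 tested granulocyte and precursor markers fell, beside 34.6% of all tested genes. Their log2 fold changes were -2.54 for Mpo, -2.08 for Elane, -0.99 for Camp, -0.40 for S100a8 and -0.33 for Ngp. Ltf rose by 0.90 and S100a9 did not pass the test (-0.11). The part of these markers in the value of Siglece was not tested.

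The promoter of Siglece is printed because this gene changed most among the tested members and was called lower in every setting that tested it. RefSeq (GRCm38.p6) gives the 250 bases before its start at chr7:43660162-43660411, minus strand, shown 5′ to 3′ with matches to the core of the PU.1 motif in capitals. PU.1 is the transcription factor that specifies the myeloid lineage.
Siglece promoter: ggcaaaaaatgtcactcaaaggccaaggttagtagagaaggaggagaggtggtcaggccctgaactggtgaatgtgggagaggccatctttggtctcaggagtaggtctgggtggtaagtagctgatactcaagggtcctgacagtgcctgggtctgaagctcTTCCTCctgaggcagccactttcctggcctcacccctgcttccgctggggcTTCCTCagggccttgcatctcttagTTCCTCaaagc
The core was searched as GAGGAA on both strands, so that TTCCTC marks a match on the other strand. Siglece has 3 matches, at 87, 36 and 11 bases before the start. Of 32851 promoters of this length 23.3% hold at least 1 match and 0.43% hold 3 or more. Pirb, which did not pass the test, holds 3 matches as well. The letters of 2 interferon-related motifs, the core of the interferon-stimulated response element (GAAANNGAAA, in 3.0% of promoters) and the gamma-activated sequence (TTCNNNGAA, in 7.0%), were not found in this window of Siglece. The second of them has 1 match in Lilr4b, at 104 bases before the start, and 1 in Siglech. The promoter table used matched 8 of the 10 members, and Siglec1 and Lilrb4a are not in it.

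The genes whose pattern over the 6 libraries was most like that of Siglece were St6gal1, Mepce, Rab31, Frat2 and Arsa, with Pearson correlations of log2(FPKM + 1) of 0.999 each. The likeness is a description over 6 libraries in 2 groups, and 319 of 11686 other genes had a correlation above 0.99. St6gal1 is itself a sialyltransferase, and its values are given with that list below.

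Cd33 (ENSMUSG00000004609, chr7:43524216-43544428, minus strand) encodes the myeloid Siglec CD33, and its mouse tail held no match to the pattern. The FPKM values were 6.43, 6.29 and 5.81 in the control libraries against 4.69, 5.58 and 4.58 in the CITED2-deficient ones. The groups did not overlap, although CITED2-deficient replicate 2 came close to the lowest control library. The log2 fold change amounted to -0.27 (standard error 0.09, adjusted p = 0.0317 from limma), and 8 of 15 alternative settings kept the call. With median-ratio scaling the log2 fold change was -0.18 (adjusted p = 0.135), and without CITED2-deficient replicate 1 it was -0.24 (adjusted p = 0.0892). The call was also lost without control replicate 1 (adjusted p = 0.0936), without control replicate 2 (0.0774) and without CITED2-deficient replicate 3 (0.101).

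Siglecg, the inhibitory Siglec of B cells, and Siglech, a receptor of plasmacytoid dendritic cells that signals through Tyrobp, were near the limit of detection. Siglecg (chr7:43408204-43418358) had FPKM values of 0.124, 0.226 and 0.206 in the control libraries against 0.0461, 0.329 and 0.180 in the CITED2-deficient ones, which is 3 to 19 fragments per library. Siglech (chr7:55768178-55778925) had 0.197, 0.180 and 0.164 against 0.245, 0.165 and 0.167, which is 5 to 10 fragments. The groups overlapped for both genes. Without a filter on low values their adjusted p-values were 0.968 and 0.874 from limma, so that a difference was not detectable at this depth. Of 7 listed markers of plasmacytoid dendritic cells Ccr9, Ly6d, Pacsin1 and Spib were below 0.5 FPKM in every library, whereas Tcf4 was at 92.9 FPKM or more and Cox6a2 at 1.46 FPKM or more in every library, and neither of these passed the test. Bst2, which many cell types express, rose, and the summed FPKM of the list was 355 to 366 in control and 866 to 975 in CITED2-deficient libraries.

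The remaining 4 Siglec genes formed the list of other Siglecs, and none of the 2 that were tested passed the threshold. Cd22, a B cell Siglec, had 7.02 ± 0.83 FPKM in control and 7.75 ± 0.24 in CITED2-deficient BMDMs (adjusted p = 0.240 from limma), and Mag, the myelin Siglec, had 1.21 ± 0.25 and 1.05 ± 0.034 (adjusted p = 0.580 from limma). Siglecf and Siglec15 stayed below the filter. Among the Siglec genes tested, the members and this list together, the log2 fold changes thus ranged from -1.57 for Siglece to 1.00 for Siglec1.

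Pilra and Pilrb1 are the inhibitory and the activating receptor of one family, and they lie 15865 bases apart on chromosome 5. Pilra (ENSMUSG00000046245, chr5:137821952-137836281, minus strand) had 11.6, 8.61 and 8.93 FPKM in the control libraries against 9.81, 10.2 and 9.20 in the CITED2-deficient ones. The CITED2-deficient values lay inside the control range, with a log2 fold change of 0.01 (95% interval -0.22 to 0.25, adjusted p = 0.929 from limma). Without control replicate 2, control replicate 3 or CITED2-deficient replicate 2 the sign was the opposite one. Pilrb1 (ENSMUSG00000066684, chr5:137852147-137858106, minus strand) had 8.04, 8.63 and 8.85 FPKM in the control libraries against 6.29, 7.90 and 6.68 in the CITED2-deficient ones. All CITED2-deficient values were below the control values, and the log2 fold change of -0.26 had a standard error of 0.09 and an adjusted p of 0.0342 in limma. Only 7 of 15 alternative settings kept this call. The log2 fold change amounted to -0.17 with median-ratio scaling (adjusted p = 0.162) and -0.20 without CITED2-deficient replicate 1 (adjusted p = 0.109). The call was also lost without control replicate 2 (adjusted p = 0.0821), without control replicate 3 (0.1002) and without CITED2-deficient replicate 3 (0.0970). The coding sequences of Pilra and Pilrb1 are 83.7% identical over 674 aligned bases. Of the 50-base windows of Pilrb1, 26.0% also occur in Pilrb2, another activating Pilr gene, so that its reads may be split between the genes. Pilrb2 had 12.4 ± 1.35 FPKM in control and 10.3 ± 0.70 in CITED2-deficient BMDMs (log2 fold change -0.24, adjusted p = 0.0424 from limma, and 0.208 with median-ratio scaling).

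Parts of the upstream sequences of Pilra and Pilrb1 are printed because the genes share them. A stretch of 60 bases was identical in both promoters (60 of 60 bases, RefSeq, GRCm38.p6), and it holds the match to the core of the interferon-stimulated response element, in capitals.
Pilra, chr5:137836415-137836474, minus strand: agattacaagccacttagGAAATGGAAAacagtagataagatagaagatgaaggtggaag
Pilrb1, chr5:137858240-137858299, minus strand: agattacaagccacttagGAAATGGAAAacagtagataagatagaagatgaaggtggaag
The match begins 178 bases before the RefSeq start of Pilra and 232 bases before that of Pilrb1. These starts lie inside the gene intervals given above, further inside for Pilrb1, so that the distances depend on the start chosen. Neither gene was called higher in CITED2-deficient BMDMs, and the part of this match in their values was not tested.

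Pirb (ENSMUSG00000058818, chr7:3711409-3720391, minus strand) encodes an inhibitory receptor for MHC class I molecules, myelin proteins and Angptl2. Its FPKM values were 236, 234 and 241 in the control libraries against 227, 242 and 236 in the CITED2-deficient ones. The groups overlapped and the log2 fold change was -0.01 (95% interval -0.085 to 0.060, adjusted p = 0.761 from limma). The sign turned with median-ratio scaling (0.09, adjusted p = 0.0597), without control replicate 3 and without CITED2-deficient replicate 1. This is the narrowest interval among the tested members, and 34.0% of its 50-base windows occur in other genes.

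Lilrb4a and Lilr4b, the inhibitory and the ITIM-less gene of the gp49 pair, lie 4252 bases apart on chromosome 10. Lilr4b (ENSMUSG00000112023, chr10:51480632-51486703, plus strand) had 553, 528 and 528 FPKM in the control libraries against 654, 664 and 607 in the CITED2-deficient ones. All CITED2-deficient libraries were above all control libraries. The mean was 1.20 times the control mean, and the log2 fold change of 0.26 had a standard error of 0.04 and an adjusted p of 0.000508 in limma, with 0.23 to 0.36 over 15 alternative settings, all past the threshold. Lilrb4a (ENSMUSG00000112148, chr10:51490956-51496611, plus strand) had 219, 198 and 209 FPKM in the control libraries against 227, 234 and 204 in the CITED2-deficient ones. The third CITED2-deficient library lay inside the control range, and the log2 fold change was 0.09 (95% interval -0.035 to 0.21, adjusted p = 0.205 from limma). It was past the threshold with median-ratio scaling (0.19, adjusted p = 0.0157) and without CITED2-deficient replicate 3 (0.14, adjusted p = 0.0353). The coding sequences of the pair are 96.0% identical over 910 aligned bases. Of the 50-base windows of Lilrb4a 26.1% occur in Lilr4b, and 24.1% of those of Lilr4b occur in Lilrb4a, so that reads of either gene may have been counted for the other. The overlapping gene model Gm49339 holds 33.7% of the Lilrb4a windows, and some of these are also among those in Lilr4b. In all, 46.7% of the Lilrb4a windows occur in another gene.

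The inhibitory gene was also set against other genes of its family as the ratio of FPKM within a library, which does not depend on the scaling between libraries. These ratios do not cover whole families, since Pilrb2, which had more FPKM than Pilrb1, and 7 Pira symbols that were not analysed here are not in them. The ratio of Lilrb4a to Lilr4b was 0.395, 0.374 and 0.396 in the control libraries against 0.347, 0.352 and 0.337 in the CITED2-deficient ones. All 3 CITED2-deficient ratios were thus lower, by 0.17 on the log2 scale (exact permutation p = 0.1, two-sided, adjusted p = 0.15 over 3 ratios). With 3 against 3 libraries 0.1 is the smallest p that this test can give, so that no ratio could pass the threshold. The ratio of Pirb to the summed FPKM of Pira2 and Lilra6, genes of the activating receptors of its family, was 25.0, 25.7 and 26.7 in control and 22.1, 24.0 and 22.5 in CITED2-deficient libraries. These groups did not overlap either (log2 difference -0.17, exact permutation p = 0.1, adjusted p = 0.15). Of the sequence windows of Pirb, 16.8% occur in Pira2 and 15.0% in Lilra6, so that reads may be split between these genes. Control means were 237 FPKM for Pirb, 6.80 for Pira2 and 2.39 for Lilra6. The part of reads from Pirb in the values of Pira2 and Lilra6, and so in this ratio, was not tested. The ratio of Pilra to Pilrb1 was 1.45, 0.997 and 1.01 in control and 1.56, 1.29 and 1.38 in CITED2-deficient libraries, where control replicate 1 overlapped with the CITED2-deficient values (log2 difference 0.31, exact permutation p = 0.3, adjusted p = 0.3).

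**Figure D3:**
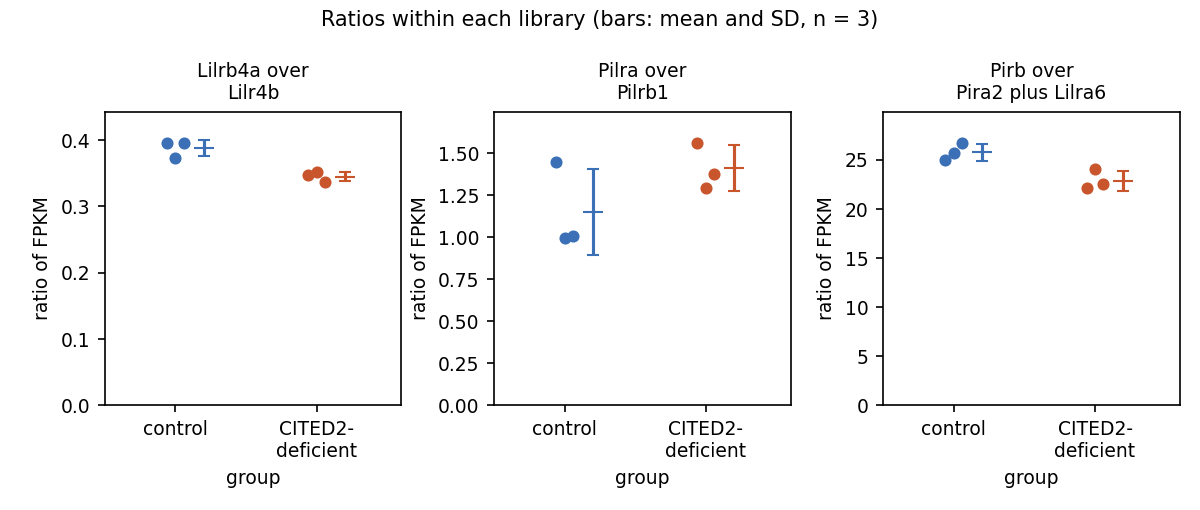
Ratio of the FPKM of the inhibitory receptor gene to that of the named other gene or genes of its family (Pilrb2 and 7 Pira symbols are not included) in each library, with the mean and SD of 3 libraries per group beside the points. The ratios of Lilrb4a to Lilr4b and of Pirb to Pira2 plus Lilra6 were lower in all CITED2-deficient libraries, and those of Pilra to Pilrb1 overlapped.

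Of 10 tested other genes of the paired families 6 were higher and 2 lower (7 and 1 with median-ratio scaling), with a median log2 fold change of 0.23. Among all tested genes 16.7% were higher and 34.6% lower (23.1% and 21.3% with median-ratio scaling). The Sirpb1 genes encode activating receptors that use Tyrobp and rose together. Sirpb1a had 10.3, 9.96 and 10.7 FPKM in the control libraries against 26.6, 33.9 and 32.2 in the CITED2-deficient ones (log2 fold change 1.49, adjusted p = 9.26e-07 from limma). Sirpb1c went from 19.03 ± 1.43 to 53.2 ± 1.24 FPKM and Sirpb1b from 3.55 ± 0.053 to 8.56 ± 0.69. Lair1, an inhibitory receptor for collagens, had 55.1, 57.9 and 56.0 FPKM in control and 114, 124 and 110 in CITED2-deficient libraries (log2 fold change 1.03, adjusted p = 2.35e-07 from limma). Sirpa, the inhibitory receptor for CD47 and the most abundant gene of this list, had 1645 ± 14.2 and 1673 ± 26.2 FPKM (adjusted p = 0.428 from limma), and was called higher by 0.13 on the log2 scale with median-ratio scaling (adjusted p = 0.00595). Cd200r1, the inhibitory receptor for CD200, fell from 84.7 ± 2.90 to 66.7 ± 1.53 FPKM (log2 fold change -0.34), whereas Cd200r4, a gene of the activating type, rose from 32.0 ± 1.39 to 38.4 ± 1.64 (log2 fold change 0.26). The members of the Sirpb1 group are close copies of each other, so that reads may be split between them.

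The genes listed as transmitting the receptors' signals changed in both directions and by less. Of 19 tested transducers 8 rose and 5 fell, or 9 and 2 with median-ratio scaling, beside 16.7% and 34.6% of all tested genes, or 23.1% and 21.3%. The phosphatases of the inhibitory motif changed little. Ptpn6 had 315 ± 1.16 FPKM in control and 336 ± 13.4 in CITED2-deficient BMDMs (log2 fold change 0.09, adjusted p = 0.0411 from limma), and Ptpn11 had 24.5 ± 0.67 and 26.8 ± 0.70 (0.12, adjusted p = 0.0483). With median-ratio scaling the log2 fold changes were larger, 0.20 for Ptpn6 (adjusted p = 0.00195 from limma) and 0.22 for Ptpn11 (adjusted p = 0.00297). Inpp5d, the lipid phosphatase, fell from 152 ± 2.44 to 135 ± 5.13 FPKM (log2 fold change -0.18, adjusted p = 0.00243 from limma, and 0.126 with median-ratio scaling). The adaptor gene Tyrobp fell from 1285 ± 5.55 to 1094 ± 50.4 FPKM (log2 fold change -0.23), and Hcst, a related adaptor, had the largest fall in the list (-0.44). Csk, the kinase that restrains the Src family, rose by 0.41 on the log2 scale, and Src itself rose by 0.57. Inpp5j, with 1.22 ± 0.31 FPKM in control BMDMs, rose by 0.50. It is in the list as a lipid phosphatase gene but is not one of the phosphatases of the motif named above. Btk fell by 0.16, a call lost with median-ratio scaling (adjusted p = 0.179 from limma).

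**Figure D4:**
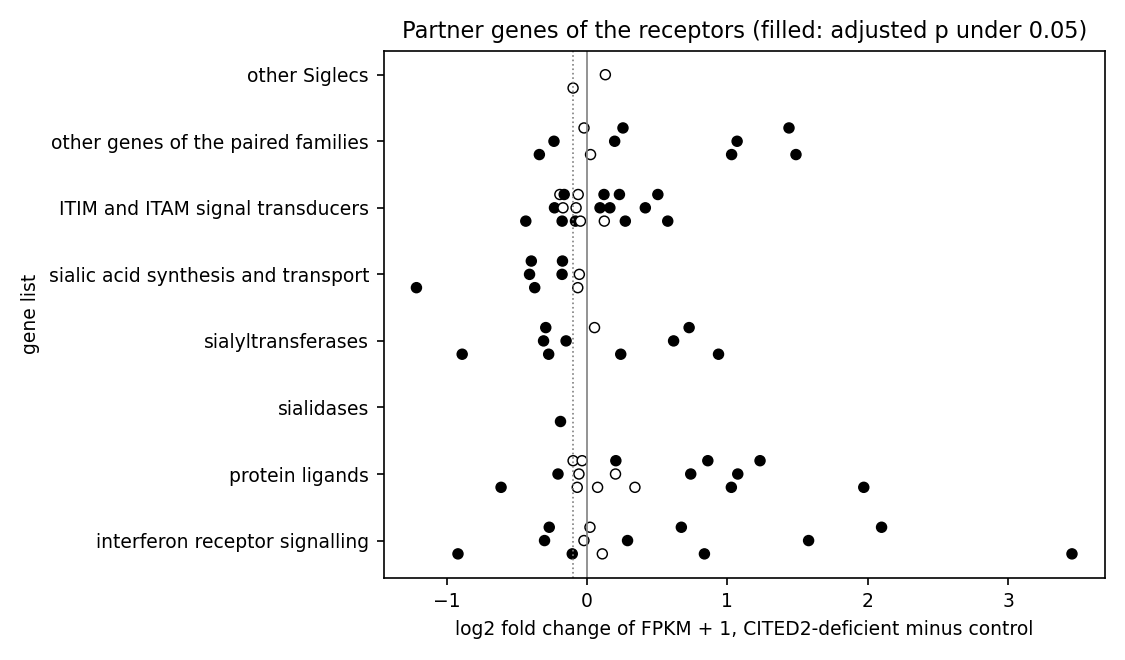
Log2 fold change of FPKM + 1, CITED2-deficient minus control, of each tested gene in the 8 lists of partner genes (1 point per gene, filled where the adjusted p was under 0.05), with a dotted line at the median of all tested genes. The 8 tested genes of sialic acid synthesis and transport all lie below 0, 6 of them filled (Gne and Cmas lie above 0 with median-ratio scaling), and the other larger lists spread to both sides.

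The tested genes of the metabolism and transport of sialic acid, the sugar that Siglecs bind, were called lower or not at all. Of 8 tested genes 6 fell and none rose, with a median log2 fold change of -0.28, and 4 of these 6 (Npl, Nagk, Slc17a5 and Slc35a1) were also called lower with median-ratio scaling. Among all tested genes 34.6% were lower, or 21.3% with median-ratio scaling, and the median was -0.10. Npl, the lyase that degrades sialic acid, had 4.23, 4.90 and 5.13 FPKM in the control libraries against 1.43, 0.966 and 2.15 in the CITED2-deficient ones (log2 fold change -1.22, adjusted p = 0.000311 from limma). Nagk, a kinase for N-acetylglucosamine, fell from 92.8 ± 2.17 to 69.6 ± 1.42 FPKM. Slc17a5, which exports sialic acid from lysosomes, fell from 40.5 ± 0.57 to 30.5 ± 0.77 FPKM. Slc35a1, the carrier of activated sialic acid into the Golgi, fell from 16.0 ± 2.12 to 12.04 ± 0.80 FPKM. Of the genes of synthesis, Nans fell by 0.18 on the log2 scale (adjusted p = 0.0466 from limma, and 0.348 with median-ratio scaling). Gne, the entry enzyme, had 12.3 ± 1.27 and 11.8 ± 0.66 FPKM (adjusted p = 0.590 from limma), and Cmas had 35.8 ± 1.59 and 34.2 ± 2.06 (adjusted p = 0.335). With median-ratio scaling none of Gne, Nans and Cmas was called.

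The sialyltransferases, which place sialic acid on glycans, went in opposite directions, with 4 of 10 tested genes higher and 5 lower (5 and 4 with median-ratio scaling), where 51.3% of all tested genes were called, 16.7% higher and 34.6% lower. St6gal1, which caps N-glycans, had 91.8, 100.4 and 97.3 FPKM in the control libraries against 51.3, 52.7 and 50.7 in the CITED2-deficient ones (log2 fold change -0.89, adjusted p = 2.17e-07 from limma). St3gal5, the synthase of the ganglioside GM3, had 45.1, 43.9 and 44.2 FPKM in control and 86.0, 86.0 and 85.4 in CITED2-deficient libraries (log2 fold change 0.94, adjusted p = 3.19e-08 from limma). In the control libraries St6gal1 was the most abundant of the list, and in the CITED2-deficient libraries St3gal5 and St3gal1 were above it. St3gal1, which acts on O-glycans, rose from 50.9 ± 1.89 to 78.6 ± 2.10 FPKM, St3gal6 rose from 1.74 ± 0.44 to 3.51 ± 0.50, and St6galnac4 rose from 33.4 ± 1.40 to 39.6 ± 0.61. St3gal3, St6galnac6 and St3gal4 fell by 0.31, 0.29 and 0.27 on the log2 scale. Neu1, the lysosomal sialidase and the only tested gene of its list, fell from 51.8 ± 1.66 to 45.2 ± 1.81 FPKM (log2 fold change -0.19), a call that was lost with median-ratio scaling.

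**Figure D5:**
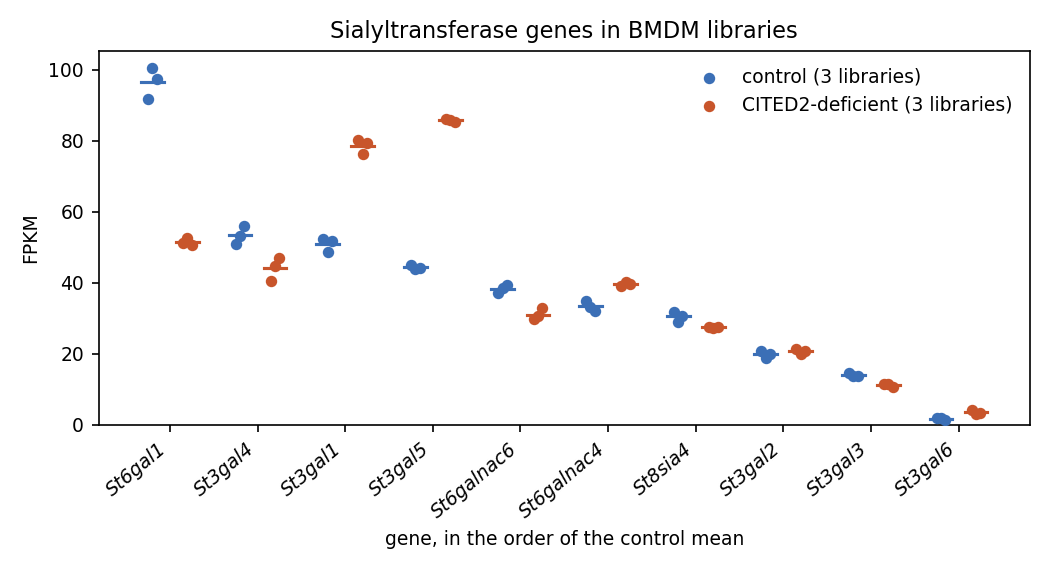
FPKM of the 10 tested sialyltransferase genes in the order of the control mean, with 1 point per library, 3 libraries per group, and a line at each group mean. St6gal1 was near 96.5 FPKM in control and 51.6 in CITED2-deficient libraries, and St3gal5 was near 44.4 and 85.8.

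Among the known protein ligands of the members 7 of 16 tested genes rose and 2 fell (8 and 1 with median-ratio scaling). These counts stand beside 16.7% higher and 34.6% lower among all tested genes, or 23.1% and 21.3% with median-ratio scaling. Among the ligands of Pirb, the class I genes and Angptl2 rose, with B2m at 2485 ± 37.9 FPKM in control and 5231 ± 43.4 in CITED2-deficient BMDMs (log2 fold change 1.07, adjusted p = 2.29e-09 from limma), and H2-K1 at 1436 ± 36.1 and 2930 ± 69.9 FPKM (1.03, adjusted p = 1.06e-08). Angptl2 rose from 8.42 ± 0.49 to 16.2 ± 2.94 FPKM. The myelin ligands of Pirb did not pass the test, with Rtn4 at 589 ± 11.5 and 575 ± 21.7 FPKM (adjusted p = 0.392 from limma), Mag as given above and Omg below the filter. Spn, a sialylated partner of Siglec1, rose from 5.68 ± 0.88 to 14.6 ± 0.82 FPKM. Pianp, a ligand of Pilra, fell from 48.5 ± 1.66 to 31.3 ± 0.75 FPKM (log2 fold change -0.61), and Apoe, a reported ligand of the human counterpart of Lilrb4a, fell by 0.21 on the log2 scale (adjusted p = 0.00170 from limma, and 0.0793 with median-ratio scaling). Fn1, which encodes fibronectin, had 16.0, 14.5 and 16.2 FPKM in control and 79.3, 58.9 and 55.8 in CITED2-deficient libraries (log2 fold change 1.97). Its highest value was in CITED2-deficient replicate 1, the library with the highest Col1a1, which had 305, 62.0 and 62.6 FPKM in CITED2-deficient replicates 1 to 3 against 14.2 to 16.6 in control libraries.

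Genes of interferon receptor signalling, the pathway known to induce Siglec1, changed in both directions. Of 13 tested genes 6 rose and 4 fell (8 and 3 with median-ratio scaling), against 16.7% and 34.6% of all tested genes (23.1% and 21.3%). Irf7 had 74.2, 66.4 and 80.4 FPKM in the control libraries against 775, 839 and 835 in the CITED2-deficient ones (log2 fold change 3.46, adjusted p = 8.88e-10 from limma). Stat2 rose from 59.3 ± 2.36 to 257 ± 12.1 FPKM and Irf1 from 73.0 ± 0.74 to 131 ± 12.8. The receptor genes Ifngr1, Ifnar2 and Ifnar1 fell by 0.92, 0.30 and 0.27 on the log2 scale, and the kinase gene Jak1 fell by 0.11 (adjusted p = 0.00787 from limma, and 0.954 with median-ratio scaling). The receptor gene Ifngr2 had 74.2 ± 1.48 and 75.3 ± 0.29 FPKM (log2 fold change 0.02, adjusted p = 0.617 from limma) and was called higher with median-ratio scaling (0.12). The transcription factor gene Irf8 had 210 ± 0.99 and 207 ± 9.88 FPKM (adjusted p = 0.634 from limma), and the kinase gene Jak2 rose by 0.29 on the log2 scale.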

How the data were processed

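The authors made stranded libraries after ribosomal RNA removal, aligned reads to mm10 with STAR, and deposited 1 Cuffdiff FPKM per gene and library (GENCODE annotation, no pooling of replicates), with versions not given in the sources used here. With mean transcript lengths of GENCODE vM21, 96.1% of 22239 matched genes gave fragment numbers within 0.02 of whole numbers in all 6 libraries, which gave the depth.

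A mean FPKM of 1 or more was required, and log2(FPKM + 1) was compared by limma 3.58.1 (R 4.3.3, variance trend, Benjamini-Hochberg adjustment over 11687 genes, threshold 0.05). The limma fit was tested on simulated data. Ratios were compared by exact permutation. Alternatives were pseudocounts of 0.1 and 0.5, no filter, a mean FPKM of at least 5, median-ratio scaling, quantile normalization, no trend, a block for the replicate number, leaving out each library in turn, and limma-voom on recovered fragments.

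The members and lists were chosen with earlier results of these data known. Named genes were all members, Cited2, up to 4 genes per direction and list past the threshold with the largest change, the direct partners Ptpn6, Ptpn11, Inpp5d and Tyrobp, the most abundant or defining markers, and the 5 genes most like Siglece. Mag, Cd22, Sirpa, Gne, Cmas, Nans, Rtn4, Omg, Angptl2, Ifngr2, Irf8, Jak2, Cd200r4 and some markers were named after their values were seen. Motif letters were searched in RefSeq promoters of 250 bases, and membrane windows were 19 codons with a mean hydropathy of at least 1.6. Protein sequences and 7 Pira gene symbols were not analysed here. Some genes under the naming rule are not reported in the text.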

Additional observations from a re-analysis of the deposited data

How the results depend on the processing

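The calls of Siglec1, Lilr4b and Cited2 stayed past the threshold in all 15 alternatives and that of Siglece in the 14 that tested it. The number of members past the threshold, 5 as reported, was 3 without a filter and 3 with quantile normalization, and 3 to 5 with 1 library left out. The number of members lower, 3 as reported, was 1 without a filter, 1 with median-ratio scaling, 1 with quantile normalization and 1 to 3 with 1 library left out. The number of partner genes lower, 25 as reported, was 15 with median-ratio scaling. The log2 fold change of Pilra, 0.01, turned to -0.061 without control replicate 2, -0.037 without control replicate 3 and -0.019 without CITED2-deficient replicate 2, and ranged from -0.061 to 0.14 with 1 library left out. That of Pirb, -0.01, turned to 0.091 with median-ratio scaling, 0.00020 without control replicate 3 and 0.013 without CITED2-deficient replicate 1, and ranged from -0.035 to 0.013 with 1 library left out. The cause of these shifts was not tested. The call of Pilrb1 was also lost with limma-voom, at a log2 fold change of -0.30 (adjusted p = 0.0904) against -0.26 as reported.

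The replicate numbers did not pair the libraries, since the same-numbered deviations had correlations of 0.014, 0.0078 and 0.040. With the replicate number as a block the members past the threshold numbered 5 (2 higher, 3 lower) and the partner genes 53 (29 higher, 24 lower), and the log2 fold change of Cited2 was -3.09. The log2 differences of the ratios under the block were -0.17 (Lilrb4a to Lilr4b), 0.31 (Pilra to Pilrb1) and -0.17 (Pirb to Pira2 plus Lilra6).

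With 51 to 172 fragments per library for Siglece and 3 to 19 for Siglecg and Siglech, depth limits these genes. Reads shared between near-identical copies limit Lilrb4a, Lilr4b, Pilrb1 and Pirb.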

Other observations

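Some genes of the lists lay below the filter or at its edge and were not tested, and the following were chosen after their values were seen. Cmah, which makes the sialic acid form that mice have and humans lack, had 1.30, 1.52 and 0.842 FPKM in the control libraries against 0.367, 0.663 and 0.405 in the CITED2-deficient ones, with groups that did not overlap. Lilra5, a gene of the leukocyte immunoglobulin-like receptors, had 0.652, 0.658 and 0.650 FPKM in control and 0.802, 0.987 and 0.908 in CITED2-deficient libraries, again without overlap. Among all tested genes 59.9% had groups that did not overlap. St8sia5, a sialyltransferase of gangliosides, was listed at 0 in all 3 control libraries and at 0.0617, 0.0694 and 0.10 FPKM in CITED2-deficient replicates 1 to 3. These values are 4, 4 and 7 fragments, in libraries that were deeper than the control ones.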
